A study of Mus musculus with 144 samples.

Results

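The 39 genes described here drive or carry out the cell division cycle, and they are 39 of the 55359 genes in the count files. They were chosen by name, and all 39 were found in the files. There are 15 S phase genes, which prepare or carry out DNA replication, and 21 mitosis genes, which act in chromosome segregation and its control. The other 3 are *Ccnd1* (cyclin D1), *Ccna2* (cyclin A2) and *Mybl2*, a transcription factor of both programmes.

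In a dividing cell these genes are switched on in order. D-type cyclins with CDK4 or CDK6, and then cyclin E with CDK2, inactivate the retinoblastoma protein and free E2F transcription factors, which turn on the replication genes. Replication starts where CDC6 and its partners load the ring of the MCM proteins onto DNA and CDC45 activates it, while ribonucleotide reductase and thymidylate synthase make the nucleotides and PCNA clamps the polymerase. Later the MuvB complex with MYBL2 and FOXM1 turns on the mitosis genes through a promoter element named CHR. Hepatocytes of the adult liver are quiescent, and they enter the cycle after loss of liver tissue. Isolation and plating are known to move hepatocytes out of quiescence. The aryl hydrocarbon receptor (AHR), which TCDD activates, is known to slow the cycle of hepatocytes at the G1 to S step in several models.

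The RNA-Seq data come from primary hepatocytes of male mice, isolated by collagenase perfusion, plated on collagen and given 10 nM TCDD or the DMSO vehicle after attachment. The mice carried the label WT (genotype wild-type, strain C57BL/6NCrl, age 28 days) or the label PkmΔDRE (genotype DRE-null, strain Pkm-delta-DRE, of the same age). PkmΔDRE mice lack an intronic dioxin response element of *Pkm* in every cell of the body and were made by genome editing and backcrossed to C57BL/6N. Both treatments had dexamethasone and an insulin, transferrin and selenium supplement in the medium, and serum was present only during attachment. Cells were harvested at 9 times from 2 to 120 h, with 4 libraries for each of the 36 groups. Levels are given as CPM, gene counts scaled to library size, with the mean ± SD of the 4 libraries. Libraries held 13588848 to 30719161 counts on genes (median 18011825).

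Groups are named by their labels, which the data did not always match. The mean of *Pkm* at 8 h was 54.9 ± 19.2 CPM with vehicle and 129.7 ± 27.2 CPM with TCDD under the label that lacks the element, and 62.4 ± 16.5 and 45.6 ± 14.53 CPM under the WT label, and neither difference passed the test (adjusted p = 0.128 and 0.123, edgeR). Its highest mean of any hour was 482 CPM with vehicle (72 h) and 934 CPM with TCDD (48 h) under PkmΔDRE. Under WT it was 836 and 770 CPM, both at 72 h. Without the 5 libraries named next, the PkmΔDRE vehicle value was 501 CPM (96 h) and the WT TCDD value 891 CPM (72 h). In 5 libraries the values went against the label. *Cyp1a1*, the usual marker of AHR activation, was 3285 CPM in vehicle library 21 (WT, 48 h; other libraries of the group 1.34 to 2.37 CPM) and 1717 CPM in vehicle library 31 (WT, 96 h; 17.9 to 114.1 CPM), and 29.2 CPM in TCDD library 64 (WT, 72 h; 3386 to 6764 CPM). The summed hepatocyte markers were 11236 CPM in library 80 (PkmΔDRE, vehicle, 4 h; 122786 to 141219 CPM) and 111072 CPM in replicate 4 of the PkmΔDRE vehicle group at 96 h (13550 to 15999 CPM). Several results that rest on these libraries are given with and without them. Other values of their groups include them, among them most single-gene means and the WT call counts against 2 h. The hepatocyte markers summed to 153262 CPM in WT and 195071 CPM in PkmΔDRE vehicle cells at 2 h, and to 9191 and 8045 CPM at 120 h. Lymphocyte markers summed to at most 1.56 CPM in any group mean.

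Promoters of the S phase genes and of the mitosis genes differed in the motifs they hold. RefSeq promoters (GRCm38.p6, from 250 bases before to 50 after the start) were at hand for 31 of the 39 genes, as 33 promoters, and *Ccne2*, *Mcm4*, *Foxm1*, *Aurkb*, *Kif20a*, *Tpx2*, *Ccnd1* and *Ccna2* had none. An E2F motif, searched as TTTNNCGC on both strands, was found in 6 of 14 S phase promoters (42.9%), 1 of 18 mitosis promoters (5.6%) and 5.2% of all 32851 promoters. The CHR element, searched as TTTGAA or TTCGAA on both strands, was found in 3 of 14 (21.4%), 14 of 18 (77.8%) and 19.2%. The CCAAT box was in 71.4%, 88.9% and 37.4%, and the AHR core motif GCGTG in 42.9%, 72.2% and 32.4% of the same 3 sets. A match is a run of letters and no proof of binding.

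The promoters of 3 S phase and 4 mitosis genes whose levels are described below are shown, each over the 180 bases before the start, 5′ to 3′ on the strand of the gene, with the motif in capitals. The 3 S phase promoters show the E2F motif, and *Mcm6* and *Mcm5* each hold a pair of matches that overlap, 1 on each strand.
Mcm6, chr1:128359706-128359885 (minus strand): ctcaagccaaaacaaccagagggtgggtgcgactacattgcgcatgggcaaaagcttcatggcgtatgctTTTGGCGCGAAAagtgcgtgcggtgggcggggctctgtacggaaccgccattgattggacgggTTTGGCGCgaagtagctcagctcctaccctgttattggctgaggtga
Mcm5, chr8:75109329-75109508 (plus strand): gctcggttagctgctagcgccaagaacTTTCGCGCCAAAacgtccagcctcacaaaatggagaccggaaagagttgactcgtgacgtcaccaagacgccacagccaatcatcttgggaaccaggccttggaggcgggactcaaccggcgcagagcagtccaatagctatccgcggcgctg
Cdc6, chr11:98907971-98908150 (plus strand): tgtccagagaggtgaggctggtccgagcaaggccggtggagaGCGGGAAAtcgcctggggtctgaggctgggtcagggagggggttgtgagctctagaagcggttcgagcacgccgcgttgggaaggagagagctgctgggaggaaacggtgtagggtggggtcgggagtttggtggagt
The 4 mitosis promoters show the CHR element in capitals, on either strand, and *Cdk1* is also the 1 mitosis gene with an E2F match.
Cdk1, chr10:69352913-69353092 (minus strand): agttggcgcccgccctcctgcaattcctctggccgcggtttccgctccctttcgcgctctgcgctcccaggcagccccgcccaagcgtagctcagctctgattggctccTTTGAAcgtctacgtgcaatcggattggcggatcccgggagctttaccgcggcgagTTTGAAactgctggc
Cdc20, chr4:118437344-118437523 (minus strand): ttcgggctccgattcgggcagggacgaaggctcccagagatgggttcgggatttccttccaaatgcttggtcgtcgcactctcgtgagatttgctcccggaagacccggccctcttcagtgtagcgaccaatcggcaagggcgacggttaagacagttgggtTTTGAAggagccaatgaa
Top2a, chr11:99024190-99024369 (minus strand): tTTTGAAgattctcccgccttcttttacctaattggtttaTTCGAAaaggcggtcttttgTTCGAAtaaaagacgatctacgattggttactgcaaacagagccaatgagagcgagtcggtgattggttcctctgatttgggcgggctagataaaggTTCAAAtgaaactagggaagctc
Ube2c, chr2:164769749-164769928 (plus strand): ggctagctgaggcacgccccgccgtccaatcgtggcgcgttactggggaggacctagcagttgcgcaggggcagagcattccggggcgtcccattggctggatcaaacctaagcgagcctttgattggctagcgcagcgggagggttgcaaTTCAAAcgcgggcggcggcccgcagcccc

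The replication genes rose first. In WT vehicle cells the summed level of the 15 S phase genes was 291.5, 295.6, 258.4 and 328.6 CPM at 2 h, 324.9, 359.0, 513.3 and 372.7 CPM at 12 h, 749.4, 789.6, 1084 and 1016 CPM at 24 h, and 530.6, 738.3, 1358 and 859.9 CPM at 48 h. All 4 libraries at 24 h lay above all 4 at 12 h, while those at 48 h spanned the range at 24 h. The sum then fell to 286.6 ± 34.5 CPM at 96 h, near its level at 2 h (293.5 ± 28.7 CPM). The summed level of the 21 mitosis genes was 14.6 ± 1.8 CPM at 2 h and 57.2, 55.2, 74.7 and 55.7 CPM at 24 h. At 48 h it was 220.8, 551.1, 860.8 and 831.3 CPM, and at 72 h 457.6, 457.5, 159.3 and 470.7 CPM. The 48 h group holds library 21, the first of the 4, which went against its label and was the lowest in both sums. With it the mean S phase sum was higher at 24 h (909.7 CPM) than at 48 h (871.6 CPM), and without it the order turned, with 985.3 ± 328.2 CPM (n = 3) at 48 h. The mitosis sum reached its highest mean at 48 h with that library (616.0 CPM) and without it (747.7 CPM), and was still 90.9 ± 30.3 CPM at 120 h.

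In PkmΔDRE vehicle cells both sums were highest at 48 h. The S phase sum was 314.2 ± 47.9 CPM at 2 h, 585.7, 641.3, 1024 and 1095 CPM at 24 h, and 1207, 1077, 1457 and 1242 CPM at 48 h. The mitosis sum was 27.6 CPM at 2 h, 19.1, 37.0, 82.3 and 69.7 CPM at 24 h, and 787.4, 1037, 1206 and 921.5 CPM at 48 h. At 24 h, the third and the fourth library lay well above the first and the second. RNA of a whole culture was measured, so a gene that falls in all cells and a loss of the cells that express it cannot be told apart.

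**Figure D1:**
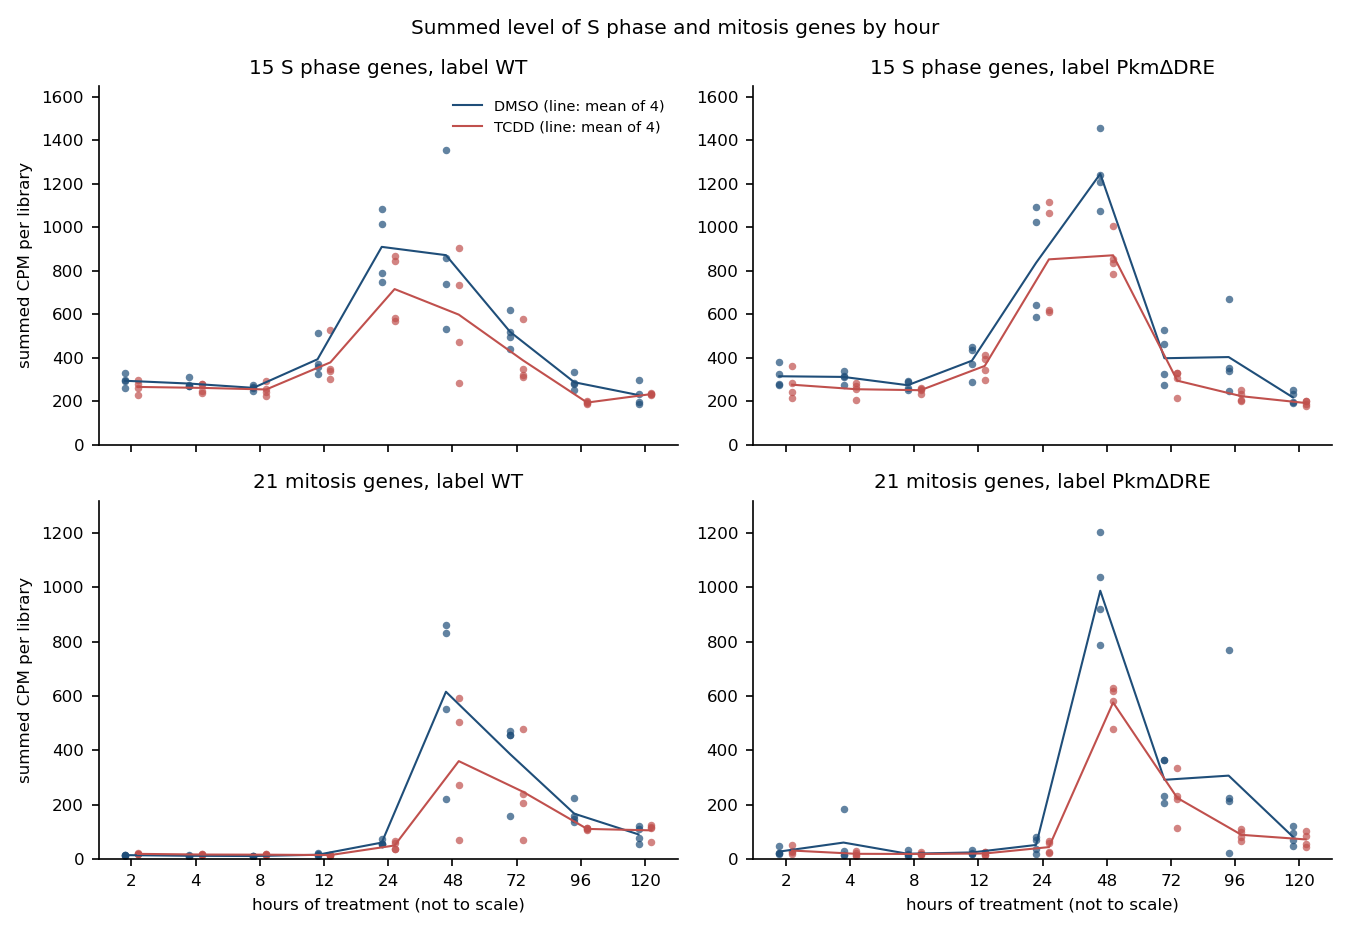
Summed level of the 15 S phase genes and of the 21 mitosis genes (CPM) against the hour of harvest for vehicle and TCDD cells of each label, with points for libraries and lines through the means of 4 libraries. In WT vehicle cells the mitosis sum is highest at 48 h (616.0 CPM) and the S phase sum at 24 h (909.7 CPM), or at 48 h (985.3 CPM) without library 21, and the means include the libraries that went against their labels (21, 31 and 64 in WT at 48, 96 and 72 h, and library 80 and replicate 4 of 96 h in PkmΔDRE vehicle).

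Each later hour was set against 2 h in vehicle by edgeR's quasi-likelihood test, and a gene was called where it changed 1.5-fold or more with an adjusted p (over all genes tested) below 0.05. In WT cells 0 of 15 S phase genes and 0 of 21 mitosis genes were called higher at 4 h (2.19% of all genes called higher), 5 and 0 at 8 h (15.9%), 8 and 1 at 12 h (18.5%), and 14 and 15 at 24 h (25.8%). The counts were 14 and 21 for 48 h (30.4%), 12 and 21 for 72 h (31.1%), 7 and 21 for 96 h (30.1%), and 6 and 20 for 120 h (33.4%). These WT counts include libraries 21 and 31, of 48 and 96 h. The first S phase genes were called at 8 h and the first mitosis gene at 12 h. In PkmΔDRE cells they were 1 and 0 for 4 h (2.59%), 2 and 0 for 8 h (5.52%), 6 and 0 for 12 h (12.2%), and 12 and 2 for 24 h (18%). The later counts were 13 and 21 for 48 h (20.2%), 6 and 20 for 72 h (22.8%), 6 and 20 for 96 h (17.7%) and 4 and 6 for 120 h (26.8%). *Ccna2*, *Ccnd1* and *Mybl2* were all higher at 48, 72 and 96 h in both labels.

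Without the 5 libraries the PkmΔDRE counts became 12 and 5 at 24 h (18.4%) and 4 and 12 at 120 h (27.5%), and no gene was called at 4 h. The 4 h call, *Mcm6*, was also lost on leaving out each of many other libraries. Leaving out vehicle replicate 1 of 96 h lowered the calls of both directions at 96 h from 30 to 17, and leaving out replicate 3 of 2 h those at 120 h from 13 to 8. The median log2 fold change from 2 h at 24 h was 2.40 for S phase genes and 2.03 for mitosis genes in WT (0.18 over all genes tested), and 2.29 and 1.19 in PkmΔDRE. At 48 h it was 2.53 and 5.87 in WT (0.22) and 2.96 and 5.30 in PkmΔDRE (0.20). The median of all genes moved by over 0.1 in 12 of the 16 comparisons with 2 h and in 0 of the 18 comparisons of TCDD with vehicle. A few mitosis genes had at most 3 counts in the whole 2 h group, and with these at the fold that 3 counts allow the WT median at 24 h was 1.96 and the others above did not move.

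The 2 lists parted in WT over the step from 24 to 48 h. The step from 12 to 24 h raised 11 of 15 S phase genes, 13 of 21 mitosis genes, *Ccna2* and *Mybl2* (4.09% of all genes called higher). The step to 48 h raised 1 S phase gene, *Rrm2*, and all 21 mitosis genes with *Ccnd1*, *Ccna2* and *Mybl2* (3.93%). The median step to 48 h was -0.05 for S phase and 3.71 for mitosis genes on the log2 scale. These WT values include library 21 at 48 h, which went against its label. Without it the mean S phase sum was higher at 48 h (985.3 CPM) than at 24 h (909.7 CPM), and the mitosis sum at 48 h was 747.7 CPM. In PkmΔDRE the step to 24 h raised *Cdc6* and *Mcm5* and no mitosis gene (0.194%), and the step to 48 h raised *Rrm2*, *Tyms*, 13 mitosis genes and the other 3 (1.4%), with medians of 0.51 and 4.00. Without the 5 libraries these PkmΔDRE counts were 9 S phase genes and 0 mitosis genes to 24 h (2.67%), and 4 S phase genes and 21 mitosis genes to 48 h (5.35%). Single PkmΔDRE vehicle libraries moved these counts. For the step to 24 h, 2 calls in all, leaving out replicate 2 of 24 h gave 8 and replicate 4 of 96 h 4, while leaving out replicate 3 or 4 of 24 h or replicate 1, 3 or 4 of 12 h gave 0 and replicate 2 of 12 h 1. For the step to 48 h, 18 calls in all, leaving out replicate 1 or 2 of 24 h gave 8 and replicate 3 of 48 h 10.

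**Figure D2:**
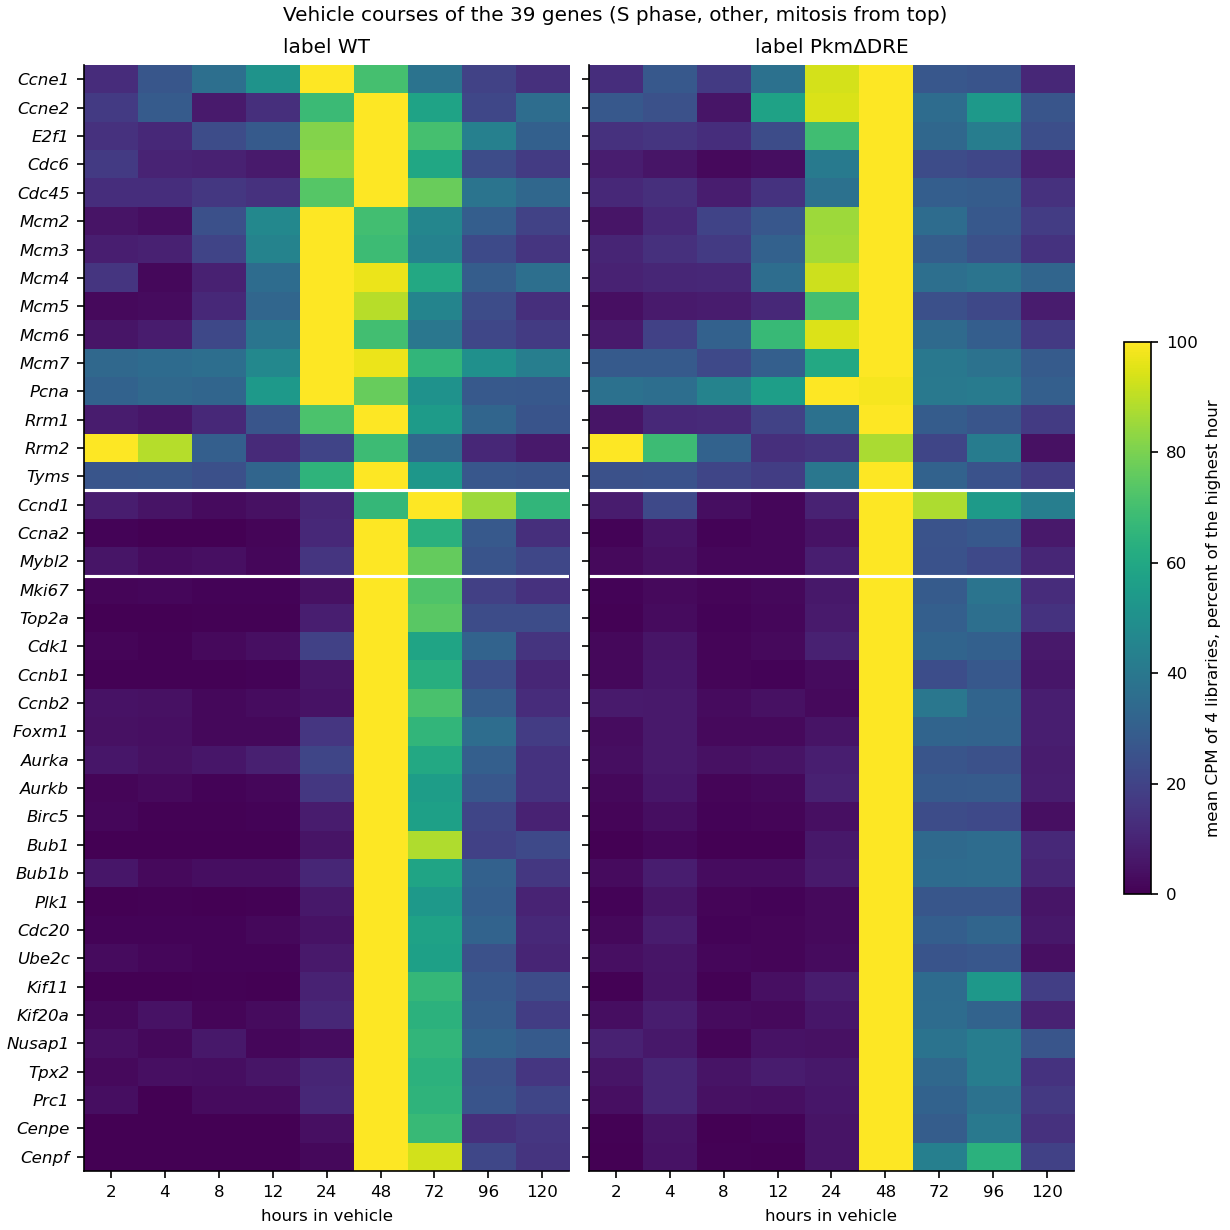
Mean CPM of the 4 vehicle libraries for the 39 genes (rows) at the 9 hours (columns) of each label, as a percent of the gene's highest hour, where yellow marks that hour. All 21 mitosis rows are highest at 48 h, *Rrm2* is highest at 2 h, and the columns include libraries 21 and 31 (WT, 48 and 96 h), library 80 and replicate 4 of 96 h (PkmΔDRE, 4 and 96 h).

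Among the licensing genes, *Mcm6*, a subunit of the replicative helicase, was 8.17, 10.9, 11.7 and 6.42 CPM at 2 h in WT vehicle cells, 62.3, 65.9, 93.2 and 39.7 CPM at 12 h, and 140.5, 149, 223 and 160 CPM at 24 h. The groups at 2, 12 and 24 h did not overlap. The change from 2 h was already 2.00 ± 0.26 (log2, SE) at 8 h (edgeR adjusted p = 3.05e-07) and 4.06 ± 0.28 at 24 h. In PkmΔDRE cells *Mcm6* was 7.96, 12.6, 9.59 and 14 CPM at 2 h, and 82.9, 158, 213 and 124.7 CPM at 24 h. *Mcm5*, another subunit, had the largest S phase change, from 2.79, 1.55, 1.42 and 2.22 CPM at 2 h to 60.8, 74.9, 86.4 and 105.6 CPM at 24 h in WT, a fold change of 37.5. *Mcm2* and *Mcm3* had their highest WT mean at 24 h too (117.3 and 96.1 CPM), as did *Mcm4* (28.6 CPM) and *Mcm7* (93.3 CPM) while library 21 was counted at 48 h. *Mcm7* started higher, at 31.4 CPM at 2 h, and rose least of the 6 subunits (log2 change of 1.37 at 48 h). Reads of *Mcm7* cannot be told from those of its antisense neighbours *Ap4m1* and *Cops6*, as strand was not used.

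*Cdc6*, which loads the helicase, was low at 12 h, when *Mcm6* was already up. Its levels were 0.121, 0.676, 1.60 and 1.64 CPM at 12 h in WT, below its 2 h mean of 2.39 CPM (log2 change of -1.31, adjusted p = 0.0458, edgeR), and 5.57, 7.54, 19.2 and 14.9 CPM at 24 h. From 12 to 24 h it rose 11.2-fold in WT and 10.8-fold in PkmΔDRE (adjusted p = 5.71e-05 and 0.0189, edgeR). *Cdc45*, which activates the helicase, went from 1.28 CPM at 2 h to 9.69 CPM at 48 h in WT and from 2.27 to 19.4 CPM in PkmΔDRE. *Ccne1* (cyclin E1), the partner of CDK2, was 3.25, 9.60, 3.03 and 2.22 CPM at 2 h and 26.6, 30.8, 39.7 and 46.6 CPM at 24 h in WT. *Ccne2* stayed low, at 4.18 CPM in WT at 48 h. *E2f1*, an activating E2F factor, went from 4.52 CPM at 2 h to 31.5 CPM at 48 h in WT and from 6.05 to 42.6 CPM in PkmΔDRE. *Pcna* was the S phase gene with the smallest rise among those called at 48 h, from 37.2 to 91.2 CPM in WT.

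*Rrm2*, the small subunit of ribonucleotide reductase, ran against the other S phase genes. In WT vehicle cells it was 160, 175, 127.6 and 205 CPM at 2 h, and 57.3, 71.8, 37.3 and 35.2 CPM at 8 h. At 12 h it was 14.9, 30.8, 19.3 and 15.1 CPM, a log2 change of -3.15 (adjusted p = 5.24e-09, edgeR), and at 48 h it had come back to 58.6, 89.2, 196 and 115.01 CPM. In PkmΔDRE cells *Rrm2* was 226, 182, 137.2 and 108.1 CPM at 2 h, 20.1, 14.8, 30.6 and 22.5 CPM at 12 h, and 116.5, 139.1, 194 and 120.0 CPM at 48 h. It was called lower than at 2 h at 8, 12, 24, 72, 96 and 120 h in both labels and did not pass the test at 48 h. The large subunit *Rrm1* had no such early level, with 7.39 CPM at 2 h and 98.3 CPM at 48 h in WT, and *Tyms* (thymidylate synthase) went from 7.00 to 26.7 CPM.

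*Cdk1*, the kinase that starts mitosis, was 0.557, 0.640, 0.890 and 0.714 CPM at 2 h in WT vehicle cells, 6.06, 8.02, 11.9 and 10.4 CPM at 24 h, and 16.8, 45, 75.4 and 50.7 CPM at 48 h. The 3 groups did not overlap, and the fold change from 24 to 48 h was 5.06 (adjusted p = 0.000155, edgeR). In PkmΔDRE cells *Cdk1* was 0.925, 5.05, 10.5 and 11.8 CPM at 24 h and 54.3, 66, 97.6 and 94.7 CPM at 48 h. *Cdc20*, which activates the ligase that ends metaphase, was 2.21, 2.69, 2.37 and 3.36 CPM at 24 h and 15.9, 54.1, 88.9 and 56.2 CPM at 48 h in WT, a 19.8-fold step. In PkmΔDRE the *Cdc20* step was 38.7-fold, to 82.2, 52.3, 139.8 and 114.005 CPM. *Ube2c*, the ubiquitin-conjugating enzyme of the same ligase, reached 52.8 ± 28.9 CPM in WT and 106.9 ± 29.95 CPM in PkmΔDRE at 48 h. Per kilobase of exon *Cdc20* was the highest mitosis gene in both labels at 48 h, at 28.8 CPM per kb in WT, above *Ube2c* at 20.3, and *Cenpf* was the lowest at 0.37.

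The cyclins *Ccnb1* and *Ccnb2* reached 36.6 and 26.7 CPM at 48 h in WT and 63 and 39.6 CPM in PkmΔDRE, and *Ccna2*, which serves both S phase and mitosis, 29.8 and 47.2 CPM. The mitotic kinases *Aurka*, *Aurkb*, *Plk1*, *Bub1* and *Bub1b* had 48 h means of 44.5, 18.7, 35.6, 5.27 and 26.5 CPM in WT. *Foxm1*, the factor that turns on mitosis genes, and *Mybl2* were at 35.2 and 22.2 CPM in WT and 66.9 and 44.6 CPM in PkmΔDRE. *Birc5* (survivin, of the chromosomal passenger complex) was at 39 and 76 CPM. *Top2a* (topoisomerase II alpha) had 0 counts in the 4 WT vehicle libraries at 2 h and 17.6, 27.2, 21.7 and 77.6 CPM at 48 h, at least 833-fold higher than 3 counts over the 2 h group allow. *Bub1* was at 0 counts at 2 h in both labels and at least 121.8-fold higher in WT and 185-fold in PkmΔDRE at 48 h. The spindle and kinetochore genes *Kif11*, *Kif20a*, *Nusap1*, *Tpx2*, *Prc1*, *Cenpe* and *Cenpf* and the proliferation marker *Mki67* were all called higher at 48 h in both labels, with WT means between 5.70 CPM (*Cenpf*) and 38 CPM (*Tpx2*). Exons of 11 of the 39 genes overlap a gene on the other strand and their levels are uncertain to that extent, *Ccne2*, *Cdc45*, *Mcm7*, *Plk1*, *Cdc20*, *Ube2c*, *Kif20a*, *Nusap1*, *Prc1*, *Ccnd1* and *Ccna2*.

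The hour of the highest vehicle mean was 48 h for 21 of 21 mitosis genes in both labels. Of the S phase genes, *Ccne1*, *Mcm2*, *Mcm3*, *Mcm4*, *Mcm5*, *Mcm6*, *Mcm7* and *Pcna* were highest at 24 h in WT, 6 at 48 h and *Rrm2* at 2 h. Without library 21, *Mcm4*, *Mcm5* and *Mcm7* were highest at 48 h instead (31.4, 85.2 and 103.3 CPM), which left 5 genes at 24 h and 9 at 48 h. No other gene of the 39 changed its hour in vehicle cells without the 5 libraries. In PkmΔDRE 13 S phase genes were highest at 48 h, *Pcna* at 24 h and *Rrm2* at 2 h. *Ccnd1*, the D cyclin that links growth signals to the cycle, was not called at 24 h in either label (WT 11.7, 8.83, 14.1 and 10.8 CPM, against 6.31, 15.9, 5.16 and 6.27 CPM at 2 h). It was 20.8, 61.9, 121.04 and 78.1 CPM at 48 h and 133.7, 122.7, 29.5 and 137.7 CPM at 72 h in WT, where 1 library at 72 h lay far below the rest. In PkmΔDRE *Ccnd1* was 66.8, 101.9, 169 and 120.97 CPM at 48 h. At 120 h the *Ccnd1* level was 69.8 ± 44.2 CPM in WT and 49.2 ± 7.19 CPM in PkmΔDRE, while *Cdk1* was back at 7.13 and 5.24 CPM.

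Of 27 other replication genes, 23 were called higher at 24 h in WT (25.8% of all genes) and 18 in PkmΔDRE (18%), and 20 and 21 at 48 h (30.4% and 20.2%), from *Chaf1a* (log2 change of 5.88 in WT) to *Gins4* (1.16), while *Mcm10* fell (-1.41 in WT and -1.03 in PkmΔDRE). Of 30 other mitosis genes, 21 were called higher at 24 h in WT and 12 in PkmΔDRE, and 29 at 48 h in both labels, with *Cks2* the smallest called change (0.87 and 1.17). All 8 of the G1 cyclins, CDKs and CDC25 phosphatases were higher at 48 h in both labels. Of the E2F and RB family 10 of 12 were higher in WT and 8 in PkmΔDRE, from *E2f2* (6.13 and 6.09) to *E2f4* (0.66 and 0.79), and *E2f5* was lower in PkmΔDRE (-0.86). Of the CDK inhibitors, *Cdkn2c* rose most at 48 h (1.84 and 2.18), and *Cdkn1a* (p21) was lower than at 2 h (-1.70 and -1.59).

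Markers of other liver cells moved over the same hours. The summed cholangiocyte markers were 92.5 CPM at 2 h, 544 CPM (202 to 774) at 48 h and 970 CPM at 72 h in WT vehicle cells and 102.7, 620 and 1003 CPM in PkmΔDRE, with *Krt19* and *Spp1* called higher and *Epcam* and *Sox9* called lower at 48 h. Stellate and fibroblast markers went from 10.8 to 29.9 CPM between 2 and 48 h in WT, endothelial markers from 367 to 94.7 CPM and macrophage markers from 173 to 54.7 CPM. Their part in the levels of the cell cycle genes was not tested.

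At 48 h the vehicle libraries of a group differed among themselves in 2 ways. In WT library 24 was the highest for 11 of the 39 genes and library 23 for 28. In PkmΔDRE library 94 was the highest for 12 and library 95 for 25. The 11 genes highest in library 24 were *Ccne2*, *Mcm4*, *Mki67*, *Top2a*, *Bub1*, *Kif11*, *Nusap1*, *Tpx2*, *Prc1*, *Cenpe* and *Cenpf*, and all 11 were among the 12 highest in library 94. *Mki67* was 9.36, 27, 11.5 and 93.9 CPM in WT and 14.7, 120.7, 28.0 and 4.32 CPM in PkmΔDRE, so that 1 library stood far above the others in each label. Libraries 24 and 94 had the largest shares of uniquely mapped pairs on no gene in their groups, 10.7% (others 5.87 to 7.96%) and 11.3% (others 4.87 to 5.36%).

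Sequence composition went with this spread. GC content of the longest coding transcript (GENCODE M21, GRCm38) ran from 36.3% to 58.3% over the 39 genes. For the 9 genes under 45% GC the median coefficient of variation among the 4 libraries was 77.8% in WT and 113.6% in PkmΔDRE, and for the other 30 genes it was 49.9% and 27.8%. Across the 39 genes, which share libraries and are not independent replicates, GC and this coefficient had Pearson's r of -0.51 in WT and -0.64 in PkmΔDRE (Spearman's rho -0.43 and -0.30). Transcript length had r of 0.69 and 0.58 (rho 0.28 and 0.35).

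**Figure D3:**
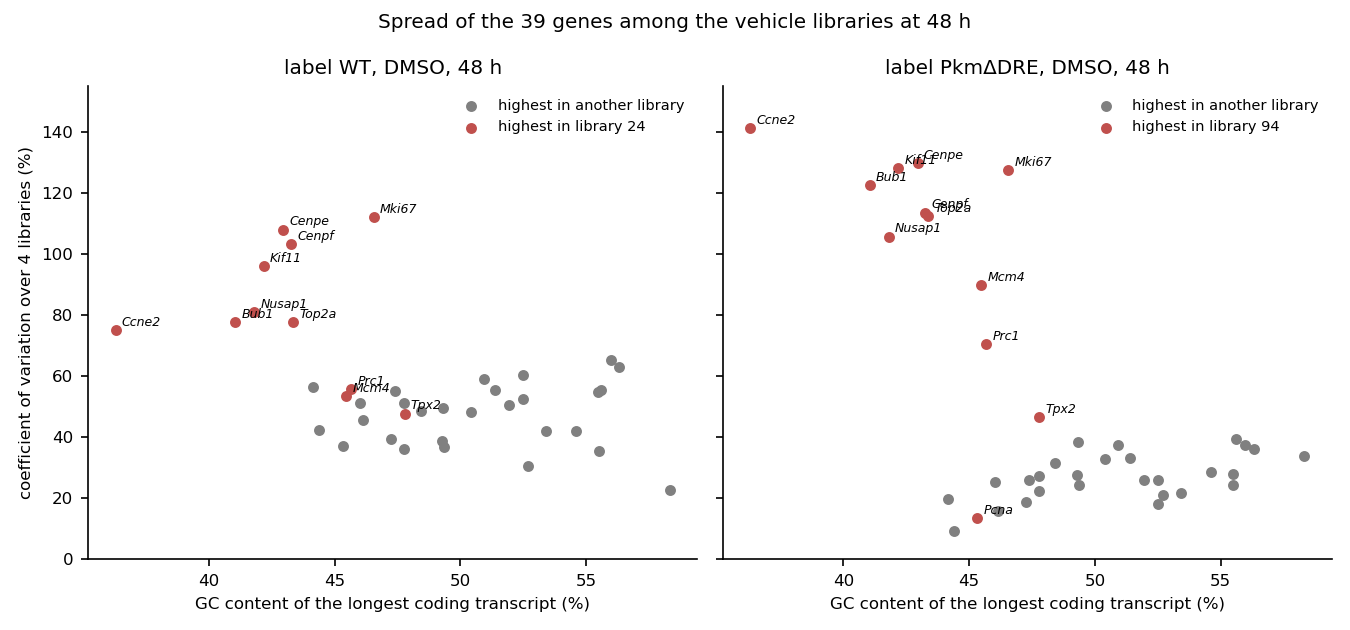
Coefficient of variation among the 4 vehicle libraries at 48 h (percent) against the GC content of the longest coding transcript (percent) for the 39 genes in each label, with named red points for the genes highest in library 24 or 94. Genes under 45% GC have medians of 77.8% in WT and 113.6% in PkmΔDRE, against 49.9% and 27.8% for the others, and the WT values include library 21, which went against its label.

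TCDD was compared with vehicle within each label and hour to see whether AHR activation moved these genes. In WT at 2 and 4 h 0 of the 39 genes were called (0% of all genes in both), and the same held for 12 h (0.0321%), 24 h (0.373%), 48 h (0.00763%), 72 h (0%) and 120 h (1.46%). At 8 h 3 were called (37.4%) and at 96 h 15 (15.1%). In PkmΔDRE no member was called at 2 and 4 h (0% in both), 8 h (0.106%), 12 h (0.024%), 24 h (0.016%), 48 h (0.404%), 96 h (0.0793%) or 120 h (0.633%), and 1 was called at 72 h (1.13%). At an unadjusted p under 0.05 (edgeR) there were at most 3 of the 39 genes in WT and 2 in PkmΔDRE at the hours with no call, apart from 25 at 48 h and 13 at 96 h in PkmΔDRE. Over all genes tested, 853 of 12876 and 998 of 13866 were under that limit at 48 and 96 h in PkmΔDRE. By share, the other hours with no call ran from 161 of 12481 (PkmΔDRE, 24 h) to 2126 of 12434 (WT, 4 h). DESeq2 called 2 in WT at 24 h, 8, 2 and 1 in PkmΔDRE at 48, 96 and 120 h, and none at the other hours without an edgeR call.

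At 96 h in WT, 15 of the 39 genes were lower with TCDD and none was higher, 5 of the S phase genes, 8 of the mitosis genes, *Ccnd1* and *Ccna2*. *Ccnd1* was 84, 96.1, 85.8 and 95.2 CPM with vehicle and 27.5, 32.8, 36.3 and 33.5 CPM with TCDD, a change of -1.42 ± 0.10 (log2, SE; adjusted p = 1.6e-05, edgeR). *Plk1* was 11.2, 13.2, 8.93 and 9.39 CPM with vehicle and 4.26, 4.17, 3.83 and 4.45 CPM with TCDD, a log2 change of -1.30 ± 0.18. *Mcm5* was 15.9, 24.7, 14.53 and 21.2 CPM against 9.01, 6.53, 10.0 and 10.1 CPM, a log2 change of -1.04 ± 0.20. The other 12 genes called were *Cdc20* (-1.12), *Mcm3* (-1.0), *Foxm1* (-0.97), *Birc5* (-0.89), *Aurka* (-0.89), *Mcm2* (-0.86), *Ccna2* (-0.83), *Ube2c* (-0.83), *Cdk1* (-0.82), *Rrm2* (-0.81), *Aurkb* (-0.76) and *E2f1* (-0.71). The median log2 change was -0.48 for S phase genes, -0.37 for mitosis genes and 0.01 over all genes tested. The 6 mitosis genes fitted higher included *Cenpe* (0.63), *Cenpf* (0.67) and *Bub1* (0.53), none of which passed the test.

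In 1 fit of the 72 libraries of the label, where all hours share 1 estimate of spread, 0 of the 15 genes were called, with or without a surrogate variable. In the fit of the 96 h libraries alone, leaving out library 31 gave 17 genes (14.7%), with *Cdc6* (-0.70) and *Mcm6* (-0.62) added to the 15. TCDD library 65 had 63.3% of its counts by strand on 1 strand (other libraries of the group 50.4 to 51.5%) and 11.4% unmapped pairs (3.91 to 6.61%). Without that library the fit of 96 h alone called 14 of the 15 genes, with *Aurkb* lost. Over all genes at 96 h 15.1% were called either way, and 690 of 13793 were called lower. Of the other lists, 7 of 27 replication genes were lower, from *Gins1* (-1.22) to *Chaf1b* (-0.67), and 4 of 30 mitosis genes, from *Cdca3* (-1.29) to *Racgap1* (-0.65). *E2f8* and *Cdkn2b* were lower as well (-0.98 in both) and *Rb1*, which holds E2F in check, was higher (0.66). Cholangiocyte markers were at 921 CPM with vehicle (609 to 1331) and 495 CPM with TCDD (372 to 781), with *Krt19* (-1.33) and *Krt7* (-0.80) called lower among the 5, hepatocyte markers at 10688 and 14140 CPM and endothelial markers at 74.5 and 52.8 CPM. Their part in the change of the cell cycle genes was not tested.

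At 48 and 72 h in WT, all 39 genes were fitted lower with TCDD and none passed the test. The S phase sum at 48 h was 530.6, 738.3, 1358 and 859.9 CPM with vehicle and 281.2, 471.5, 905.6 and 733.1 CPM with TCDD, and the mitosis sum with TCDD was 70.5, 273.2, 592.6 and 506.1 CPM. The groups overlapped. The median log2 change at 48 h was -0.50 for S phase and -0.77 for mitosis genes. Of the 39 genes 1 was at an unadjusted p under 0.05 (edgeR), against 337 of all 13105 genes tested, and DESeq2 called none either. At 72 h the medians were -0.43 and -0.60, with none of the 39 and 276 of all 13387 genes tested under 0.05 unadjusted (edgeR). Without libraries 21 and 64, which went against their labels at these hours, the medians were -0.68 and -1.05 at 48 h and -0.69 and -1.07 at 72 h, again with no call. At 24 h *Ccnd1* was 11.7, 8.83, 14.1 and 10.8 CPM with vehicle and 3.63, 2.78, 6.07 and 4.77 CPM with TCDD, 2 groups that did not overlap, at an adjusted p of 0.0876 (edgeR). At 120 h 19 of 21 mitosis genes were fitted higher with TCDD (median 0.26), and none was called.

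At 8 h in WT, when 37.4% of all genes tested were called, 3 of the 39 genes were. *Ccne2* was 0.279, 0.515, 0.420 and 0 CPM with vehicle and 1.5, 1.15, 1.12 and 1.55 CPM with TCDD, a change of 2.08 on the log2 scale (adjusted p = 0.0351, edgeR). *Mcm4* was higher (1.81, 2.65, 3.04 and 3.09 against 3.18, 5.13, 7.28 and 6.71 CPM, log2 change of 1.04) and *Mcm7* lower (-0.62). Without the second or the third TCDD library 1 of the 3 calls was left. With 1 surrogate variable in a fit of the 72 libraries the *Ccne2* and *Mcm4* changes were -0.04 and -0.43. Pairs outside genes were 8.36 to 21.9% of uniquely mapped pairs in the 4 TCDD libraries at this hour and 4.89 to 5.99% in the 4 vehicle libraries. With that share as a covariate *Ccne2* was no longer called (1.90, adjusted p = 0.14, edgeR), while *Mcm4* (1.53) and *Mcm7* (-0.87) were. Of the 39 genes, 26 had enough counts to be tested at this hour. Of the E2F and RB family, 6 of 12 were higher, from *Lin9* (1.90), a MuvB subunit, to *E2f6* (0.66), and *Cdk6* was higher (0.72) while *Cdk4* (-0.91) and *Ccnd3* (-0.74) were lower.

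**Figure D4:**
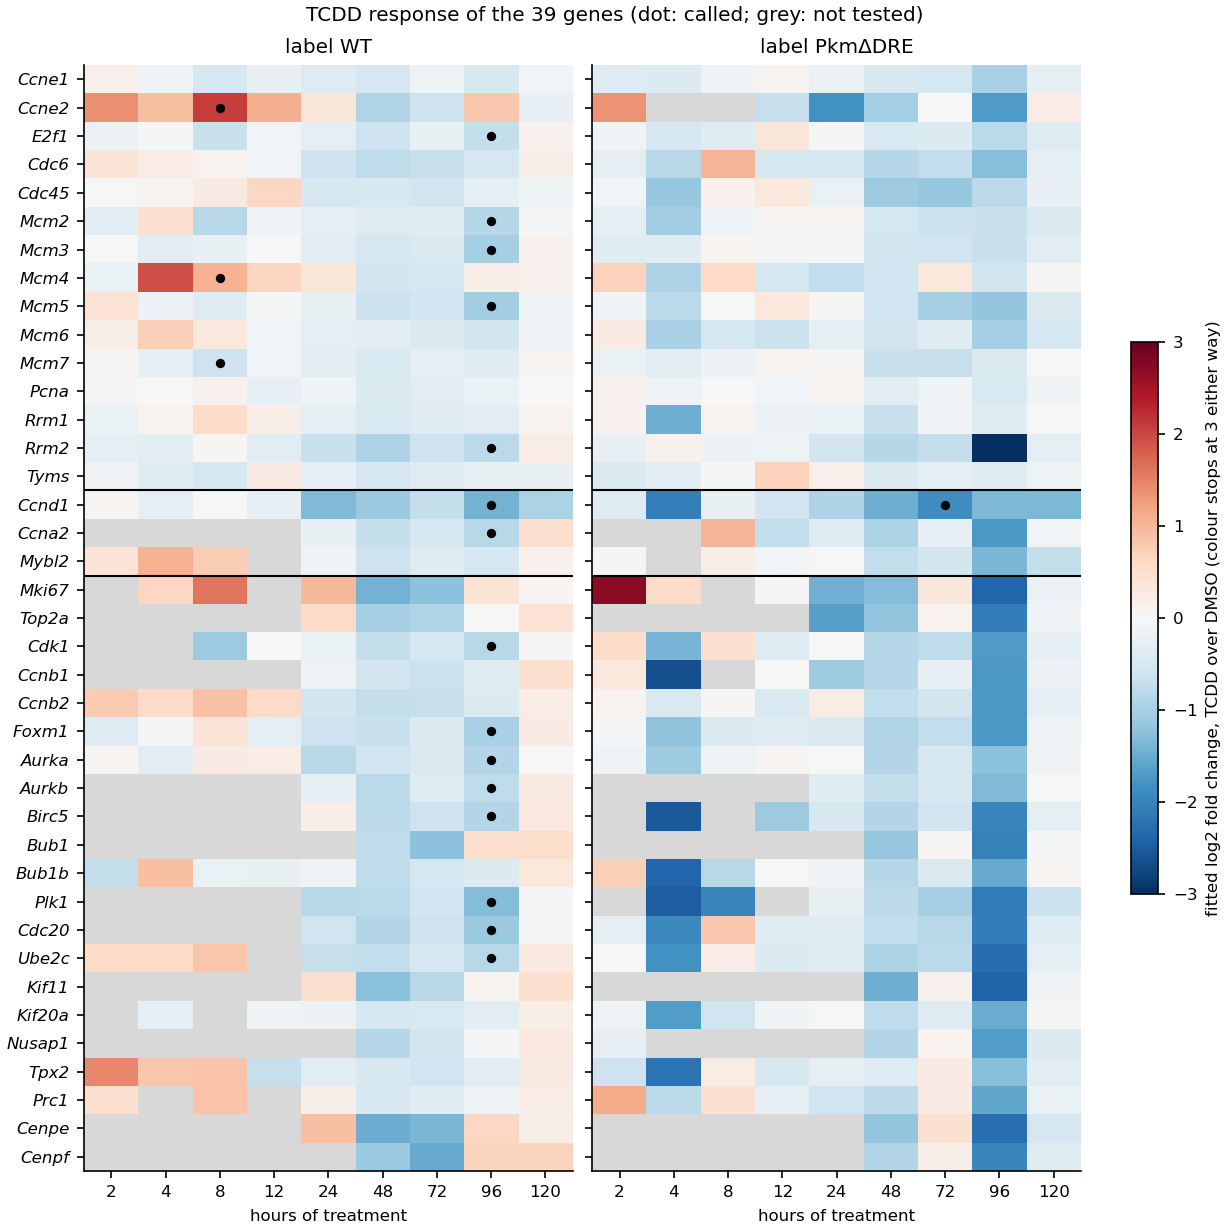
Heat map of the log2 fold change of TCDD against vehicle for the 39 genes (rows) at the 9 hours (columns), for each label, with dots on called changes and grey where a gene was not tested. The 15 dots at 96 h in WT are all decreases, all 39 rows are negative at 48 h in both labels, and the PkmΔDRE columns at 4 and 96 h include library 80 and replicate 4 of 96 h.

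In PkmΔDRE cells at 48 h, the S phase and the mitosis sums were lower with TCDD in every library than with vehicle in any, yet no single gene passed the test over all genes. The S phase sum was 1207, 1077, 1457 and 1242 CPM with vehicle and 786.8, 1005, 856.0 and 835.7 CPM with TCDD. The mitosis sum was 787.4, 1037, 1206 and 921.5 CPM with vehicle and 477.8, 581.0, 618.8 and 628.1 CPM with TCDD. All 39 genes were fitted lower, 25 of them at an unadjusted p under 0.05 (edgeR, 853 of 12876 over all genes tested), and DESeq2 called 8. The median log2 change was -0.60 for S phase and -0.87 for mitosis genes. The count turned on library 94, the second vehicle library, without which 14 genes were called lower (1.83%), 4 of them S phase genes and 7 mitosis genes. Among these 14 were *Ccnd1* (-1.51 ± 0.28), *Cdc45* (-1.21 ± 0.25), *Foxm1* (-1.08 ± 0.15), *Ube2c* (-1.08 ± 0.17), *Birc5* (-1.02 ± 0.15) and *Mcm2* (-0.69 ± 0.12). The others were *Aurka*, *Ccna2*, *Ccnb1*, *Cdc20*, *Mcm5*, *Mcm7*, *Mybl2* and *Plk1*. Without library 94 only 13 of 15 S phase genes, 14 of 21 mitosis genes and the other 3 were still fitted lower. *Ccne2*, *Mcm4*, *Mki67*, *Top2a*, *Bub1*, *Kif11*, *Nusap1*, *Cenpe* and *Cenpf* turned to higher, from 0.01 (*Top2a*) to 0.76 (*Ccne2*), and none of them was called. *Foxm1* was 67.6, 40.7, 86.5 and 72.8 CPM with vehicle and 36.3, 39.5, 39.9 and 34.9 CPM with TCDD, with the second vehicle library nearest to the treated ones. Cholangiocyte markers moved along, at 620 CPM (422 to 966) with vehicle and 364 CPM (224 to 506) with TCDD, and their part was not tested.

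*Ccnd1* was the 1 gene called at 72 h in PkmΔDRE, at 98.3, 55.5, 138.9 and 109.3 CPM with vehicle and 19.4, 20.8, 40 and 32.4 CPM with TCDD, a change of -1.86 ± 0.31 (log2, SE; adjusted p = 0.0121, edgeR). The call was lost in 1 fit of the 72 libraries of the label and without the first TCDD library of that hour, and without the first vehicle library 6 of the 39 genes were called lower. The fitted *Ccnd1* change with TCDD was negative at each hour from 24 h on in both labels. In PkmΔDRE its log2 change was -0.93 at 24 h, -1.47 at 48 h (adjusted p = 0.0605) and -1.36 at 120 h (0.0564, both edgeR), where vehicle was 59.7, 47.7, 45.8 and 43.6 CPM and TCDD 30.1, 17.7, 18.3 and 12.0 CPM, with no overlap. In WT the changes at 24, 48, 72 and 120 h were -1.32, -1.11, -0.71 and -0.95, besides the called change at 96 h. The WT values at 48 and 72 h include vehicle library 21 and TCDD library 64, which went against their labels. Without library 64 the WT mean of *Ccnd1* with TCDD at 72 h was 39.99 CPM, and with it 64.6 CPM. The WT vehicle mean at 72 h was 105.9 CPM. Exons of *Ccnd1* overlap those of *LTO1* on the other strand.

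At 96 h in PkmΔDRE the vehicle libraries spread widely around those with TCDD. The mitosis sum was 768.7, 214, 224.5 and 21.8 CPM with vehicle and 81.2, 65.9, 110.9 and 98.9 CPM with TCDD. Vehicle replicate 1 was the highest and replicate 4 the lowest of all 8 libraries. *Cdk1* was 59.2, 15.7, 19.1 and 1.73 CPM with vehicle and 7.42, 6.87, 9.12 and 6.30 CPM with TCDD, and *Ccnd1* 71.8, 94.1, 80 and 3.54 CPM with vehicle and 27.7, 17.8, 34.2 and 19.1 CPM with TCDD. *Rrm2* was instead highest in the fourth vehicle library, at 93.2, 32.2, 28.1 and 121.5 CPM, against 5.47, 8.27, 11.1 and 6.71 CPM with TCDD. With all 8 libraries 0 genes were called, 13 were at an unadjusted p under 0.05 (edgeR) and DESeq2 called 2.

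Without vehicle replicate 4, which carries hepatocyte markers at the level of early hours, 24 of the 39 genes were called lower with TCDD (2.25%), 17 of them mitosis genes, from *Kif11* (-2.80 ± 0.45) to *Mcm3* (-1.03 ± 0.22). Without both replicates 1 and 4 there were 13 (1.54%), with all 39 fitted lower and a median of -1.25. These were *Kif11* (-2.02), *Rrm2* (-1.99), *Ccnd1* (-1.87), *Top2a* (-1.77), *Cdc20* (-1.56), *Ube2c* (-1.51), *Cdk1* (-1.28), *Bub1b*, *Ccna2*, *Foxm1*, *Kif20a*, *Plk1* and *Prc1*. Of the 30 other mitosis genes 14 were called lower without replicate 4, *Hmmr* most (-3.09), and of the 27 other replication genes *Uhrf1* (-1.75) and *Pole* (-1.20).

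**Figure D5:**
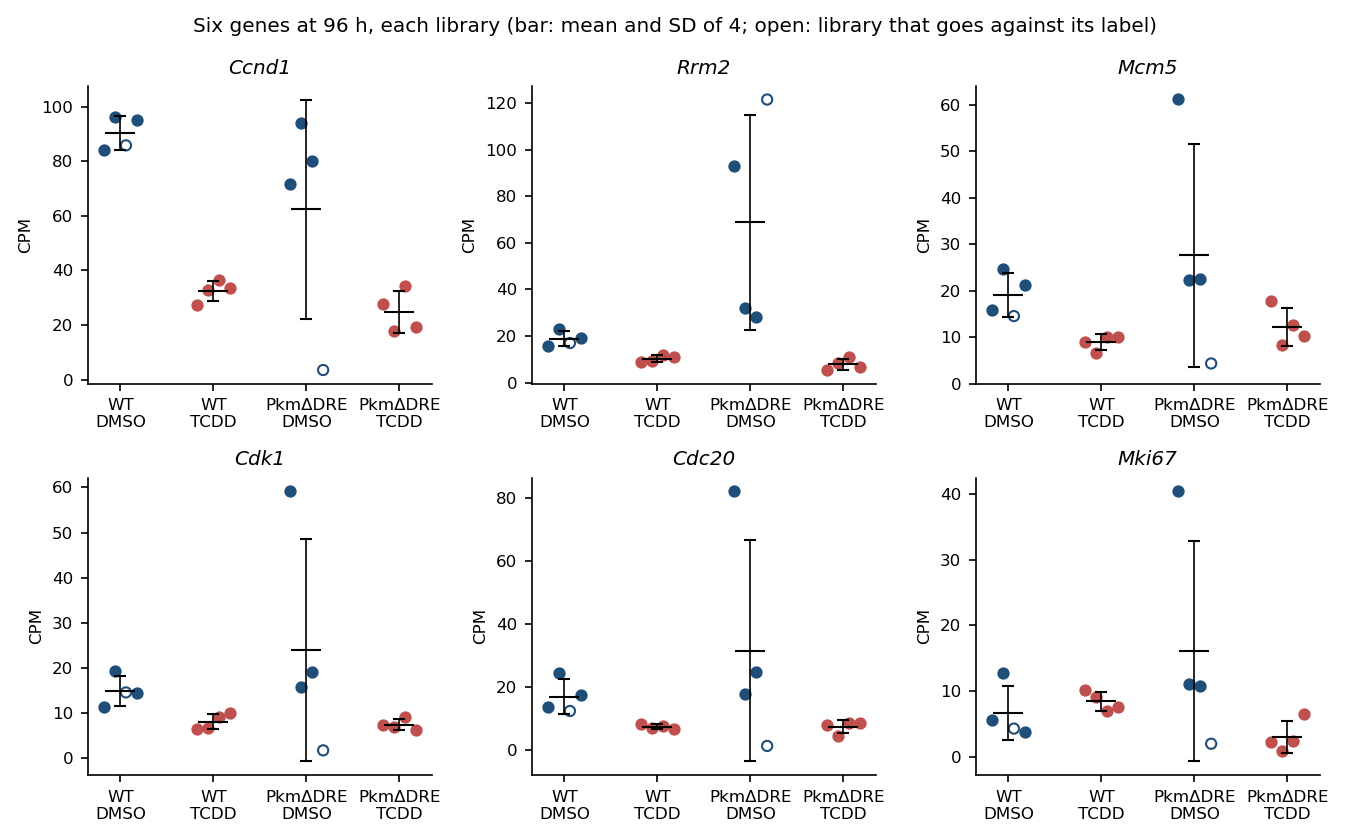
CPM of each library at 96 h for 6 genes in DMSO and TCDD cells of each label, with bars for the mean and SD of 4 libraries and open points for library 31 (WT) and replicate 4 (PkmΔDRE). For *Ccnd1* the WT treatments lie apart (84 to 96.1 against 27.5 to 36.3 CPM), while the PkmΔDRE vehicle libraries spread from 3.54 to 94.1 CPM.

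The labels were compared directly, by the difference of their TCDD responses and by their vehicle cells, to see whether these genes differed between them. The comparison is of labels, and the 8 h mean of *Pkm* was higher with TCDD under the label that lacks the element and not under WT. The difference in response passed the test for none of the 39 genes at any hour, with 0.00715% of all genes called at 48 h, 0.00695% at 72 h and 0% at each other hour. At an unadjusted p under 0.05 (edgeR) there were 6 genes at 4 h, the hour of library 80, and 6 at 96 h, the hour of that replicate 4, 2 at 8 h, 1 each at 12 and 24 h, and 0 at the other hours. Over all genes tested, 1186 of 13214 were under that limit at 4 h, 1930 of 14771 at 96 h and 2114 of 13333 at 8 h. For 12 and 24 h it was 977 of 13469 and 853 of 13668. DESeq2 called 2 at 96 h and none elsewhere. At 48 h the median difference was -0.04 for S phase and -0.08 for mitosis genes on the log2 scale. Without library 21 these were 0.14 and 0.20. At 96 h the medians were -0.29 and -1.33, or -0.47 and -1.68 without library 31 and that replicate 4. At 4 h they were -0.64 and -2.27, or -0.25 and -0.11 without library 80. For 72 h they were -0.09 and 0.18, or 0.19 and 0.78 without library 64. They were 0.15 and -0.75 at 8 h, and -0.18 and -0.54 at 120 h.

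In vehicle cells, *Ccne2* was the 1 gene called between the labels, higher in PkmΔDRE at 12 h, at 1.30, 4.31, 2.20 and 1.84 CPM against 0.422, 0.541, 0.912 and 0.409 CPM (adjusted p = 0.0476, edgeR), when 3.68% of all genes were called. That call was lost when any 1 of the 8 libraries was left out. At 8 h 0.0576% of all genes were called, and 0% at each of the other hours. At 48 h 14 of 15 S phase genes and 20 of 21 mitosis genes were fitted higher in PkmΔDRE, with medians of 0.50 and 0.56. Without library 21, the WT vehicle library that went against its label, the medians were 0.39 and 0.30. With all libraries, 10 of the 39 genes were at an unadjusted p under 0.05 (edgeR), against 734 of all 13101 genes tested. The S phase sums of the labels overlapped at 48 h, between 530.6 (library 21) and 1358 CPM in WT and between 1077 and 1457 CPM in PkmΔDRE. At 72 h all 39 genes were fitted lower in PkmΔDRE, 4 of them at an unadjusted p under 0.05 (edgeR, 653 of 13383 over all genes tested), and none was called. DESeq2 called 3 genes at 12 h, 1 at 4 h and none at the other hours.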

How the data were processed

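RNA-Seq libraries of primary mouse hepatocytes were sequenced as pairs, and the deposited values were whole read counts per gene that the authors made with Trimmomatic, STAR and GRCm39 (submitters' processing notes name FastQC and DESeq2 too), with uniquely mapped pairs counted without regard to strand. In each file 4 summary lines that name no gene (16.8 to 48.0% of pairs, median 24.2%) were left out. Groups were taken from the labels, 4 libraries each. Nothing in the sources used here says that these are separate animals or cultures, so p-values measure only the spread between these samples. No 2 libraries were identical.

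The 39 genes and all lists were chosen with earlier results of these data known. Genes passed filterByExpr (minimum count 10, minimum total 15) and were fitted with edgeR 4.0.16 (TMM scaling, robust quasi-likelihood test, R 4.3.3) over all genes, with Benjamini-Hochberg adjustment. A call needed a fold change of 1.5 or more, either way, with adjusted p below 0.05. TCDD was compared with vehicle within each label and hour, and hours within the 36 vehicle libraries of a label. CPM values were scaled by TMM, and libraries are named by number or, within a group, by replicate in the order of library numbers, which pairs no samples. All 39 genes were named, and of each other list the called members with the largest and the smallest change. Alternatives were DESeq2 1.42.0, other scaling, no filter on low counts, no fold threshold, 1 fit of a label with or without a surrogate variable (sva 3.50.0), a covariate for pairs outside genes and each library left out. Leaving out the 5 libraries (also for the hour of the highest mean), and libraries 101 and 104, was added after seeing the data. The scripts were tested on simulated counts. Promoter windows and motifs were read with Python 3.11.15 from RefSeq tables, since no GRCm39 genome was used here. Depth sets the precision, and levels of a few counts carry a wide counting error.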

Additional observations from a re-analysis of the deposited data

Results flagged for a closer look

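In 14 tests of a group of 4 libraries, 1 library lay apart from the other 3 by Dixon's 95% limit of 0.829, among the tests of all 36 groups for 4 measures, where chance gives about 1 in 20. The S phase sum was 312 CPM in a WT vehicle library at 4 h (others 268 to 274) and 576 CPM in WT TCDD library 64 at 72 h (309 to 346), whose *Cyp1a1* went against its label. The mitosis sum was 74.7 CPM in a WT vehicle library at 24 h (55.2 to 57.2), 159 CPM in library 27, a WT vehicle library at 72 h (458 to 471), 23.2 CPM in a WT TCDD library at 2 h (17.4 to 18.2), 63.4 CPM in library 71, a WT TCDD library at 120 h (115.5 to 125.03), and 185 CPM in library 80, PkmΔDRE vehicle at 4 h (14.04 to 28.5).

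*Ccnd1* was 15.9 CPM in a WT vehicle library at 2 h (5.16 to 6.31), 29.5 CPM in library 27 (122.7 to 137.7) and 85.7 CPM in library 80 (3.70 to 6.56). *Rrm2* was 78.7 CPM in library 64 (18.8 to 25.7), 9.31 CPM in library 71 (14.7 to 15.2), 4.19 CPM in a PkmΔDRE vehicle library at 120 h (8.46 to 8.86) and 100.1 CPM in a PkmΔDRE TCDD library at 4 h (127.2 to 131.4).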

How the results depend on the processing

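No paired analysis was possible because the labels give no replicate numbers and the numbers used here only follow the library order. Summed over the 9 hours, TCDD calls among the 39 genes in WT were 18, and 5 in 1 fit of the label, 0 with a surrogate variable added, and 16 to 20 on leaving out single libraries. In PkmΔDRE the 1 call became 4 in 1 fit with a surrogate variable, 12 with DESeq2, 6 with no filter on low counts, 11 with a covariate for pairs outside genes, 25 without the 5 libraries and 14 without replicates 1 and 4 of the vehicle group at 96 h, and 0 to 25 on leaving out single libraries. The difference of the responses had 0 calls, 2 in 1 fit of all libraries of both labels, 2 with DESeq2 and 0 to 2 on leaving out single libraries. The label difference in vehicle had 1, 13 in 1 fit of the 72 vehicle libraries, 4 with DESeq2, 2 with no filter, 2 with the covariate and 0 to 1 on leaving out single libraries. Calls against 2 h summed over the hours (191 in WT) stayed within 1.5 times in both labels under every alternative run. For the PkmΔDRE step to 24 h the 2 calls became 10 with DESeq2, 1 with no filter, 8 with the covariate, 11 without the 5 libraries and 0 to 8 on leaving out single libraries, and for the step to 48 h the 18 became 9 with no filter, 28 without the 5 libraries and 8 to 22. The WT steps had 26 calls (18 to 28) and 25 (25 to 28). In 1 fit of the label with 1 surrogate variable, the changes with TCDD in WT at 8 h turned to -0.042 for *Ccne2* and -0.43 for *Mcm4*. The cause was not tested for any of these.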

Other observations

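Libraries at the same place in the numbering of their group had like levels in places. At 24 h the S phase sum of replicates 3 and 4 was above that of replicates 1 and 2 in all 4 groups, at 1084 and 1016 against 749.4 and 789.6 CPM in WT vehicle, 867.5 and 843.0 against 568.8 and 582.6 CPM in WT TCDD, 1024 and 1095 against 585.7 and 641.3 CPM in PkmΔDRE vehicle, and 1117 and 1063 against 619.5 and 608.5 CPM in PkmΔDRE TCDD. At 48 h the third library was the highest in both WT groups, at 1358 and 905.6 CPM. The labels give no batch or animal for these places.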
